A study of Danio rerio with 6 samples.

Results

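*alas2* and *urod* encode enzymes of heme synthesis, and their open chromatin was compared between blood of adult zebrafish that had been exposed to cortisol as larvae and blood of vehicle controls. All rows for these genes in the deposited table of annotated regions were taken, whatever their annotation, together with every peak of the 6 libraries within 50 kb of the promoter rows. This gave 3 of the 9546 annotated rows: a promoter row and an intron row of *alas2*, and a promoter row of *urod*. After overlapping peaks had been merged across libraries, the windows held 27 regions around *alas2* and 20 around *urod*, of 153054 in the genome.

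The assay was ATAC-seq, in which a transposase cuts accessible DNA so that open chromatin appears as peaks of aligned reads. The 3 cortisol-treated libraries came from AB strain adults that had been kept in 1 µM cortisol for their first 5 days and then raised under normal conditions. The 3 control libraries came from AB adults that had been given the vehicle DMSO instead and raised alike. The fish of replicate 1 were 12 months old in both groups, those of replicate 2 were 11 months old and those of replicate 3 were 10 months old. By the methods of the study the groups were siblings and each library pooled the blood of several fish of both sexes, whereas the series description speaks of individual adults, so p-values here measure the spread between libraries, whatever each one holds.

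Heme is built in erythroid cells from glycine and succinyl-CoA. ALAS2, the erythroid 5-aminolevulinate synthase, makes the first and rate-limiting step in the mitochondrion, and UROD, uroporphyrinogen decarboxylase, acts later in the cytosol. The zebrafish mutants *sauternes* (*alas2*) and *yquem* (*urod*) have defects in heme synthesis. Fish red cells keep their nucleus, so that blood yields chromatin of erythroid cells. In mammals, an enhancer in the first intron of *ALAS2* is bound by the erythroid factor GATA1.

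The libraries differed in signal over background. The background is the number of reads that peak calling expected at a position, as recovered from the scores. It depends on the genome size set in that step. It was 5.72, 6.55 and 1.99 reads in cortisol-treated replicates 1, 2 and 3, against 9.17, 9.04 and 3.39 reads in controls 1, 2 and 3. Of the merged regions, 13835 had a peak in every library, and their median height over background was 14.2, 18.5 and 30.7 in the cortisol-treated libraries, against 7.20, 6.97 and 22.7 in the controls. Both libraries of replicate 3 therefore stood above the others, and controls 1 and 2 stood lowest. Heights are given below as multiples of the library's own median over these shared regions, and differences as log2 of that quantity. The peak names of the replicate 1 pair also carry the digits 0 and 1 the other way round from replicates 2 and 3. Their meaning is not stated, the groups follow the sample labels, and values without that pair are given where they change a direction.

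The labelled tissue was checked against marker genes in the deposited rows. Of the 11 erythroid marker genes looked for, 10 had a row and 9 a promoter row, *gata1a*, *tal1*, *klf1* and *slc4a1a* among them. These counts include *alas2* and *urod*, which were already known to have rows. A single gene of 7 myeloid markers and a single gene of 7 lymphoid markers had a row, with no promoter row in either list, and 2 of 5 thrombocyte markers had one. The table lists regions that the authors scored as higher in cortisol-treated fish, so a missing row does not show that a region was closed. The *alas2* promoter had the smallest log2 difference of the erythroid promoter rows, at 0.06. The promoter rows of the erythroid markers other than *alas2* and *urod* had higher means in cortisol-treated fish, as did the *alas2* intron and the *urod* promoter described below. So did 85.0% of all 4294 promoter rows with a peak in every library. Of these erythroid rows, 8 had a peak in every library, from 7 genes. Their log2 differences ran from 0.12 at *lmo2* to 0.69 at a row of *hbaa1* (alpha globin). Their median was 0.42, against a median of 0.19 over the 4294 promoter rows. Their summed height was 23.0, 22.8 and 29.8 times the shared-region median in cortisol-treated replicates 1, 2 and 3, against 16.0, 15.6 and 24.5 times in controls 1, 2 and 3, so the groups overlapped. The promoter rows of the thrombocyte markers *gp1bb* and *f13a1b* differed by 0.19 and 0.25. The part of blood cell makeup in the differences below was not tested, and a change in the share of a cell type cannot be told apart from a change in its chromatin.

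The tallest region at *alas2* was in its first intron and not at its promoter. The intron row covers chr8:21323216-21323676 on GRCz10 (461 bp), in intron 1 of 10 of transcript NM_131682 and 1591 bp downstream of the start site. Its summit stood 75.0, 98.8 and 204.9 times above background in cortisol-treated replicates 1, 2 and 3, against 28.8, 19.5 and 123.2 times in controls 1, 2 and 3. In multiples of the shared-region median the heights were 5.29, 5.35 and 6.68 in the cortisol-treated libraries, against 4.001, 2.79 and 5.42 in the controls. The groups overlapped, since control 3 lay above cortisol-treated replicates 1 and 2. Full separation, with every cortisol-treated library above every control, occurred at 6.21% of the shared regions by height and 5.88% by percentile. By height it occurred at 11.9% of the 981 deposited intron rows with a peak in every library. Within each replicate number, however, the cortisol-treated library was the higher one, by 0.40, 0.94 and 0.30 on the log2 scale for replicates 1, 2 and 3. All 3 pairs pointed up at 23.5% of the shared regions, and the mean was higher in cortisol-treated fish at 53.6%. These shares cover all shared regions, whereas the intron row came from a table of regions that the authors scored as higher in cortisol-treated fish. The direction at such a row is in part built into the table. The p-values at the *alas2* and *urod* rows take no account of that choice.

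The mean difference at the intron was a log2 of 0.55, or 1.46-fold higher in cortisol-treated fish, with a 95% interval of 0.957 to 2.23-fold. It did not pass the test across all 13835 shared regions (log2 SE of 0.27, limma unadjusted p = 0.0727 and Benjamini-Hochberg adjusted p = 0.681, exact permutation p = 0.3 for the single region). In simulated data this limma fit found 0 of 200 regions given a log2 difference of 0.5, so it cannot settle such a difference. With the replicate number as a block the log2 interval was 0.21 to 0.89 and limma gave an unadjusted p of 0.0028 and an adjusted p of 0.0520. Without a block, limma called 0 of the 13835 regions in either direction (0%), although 716 (5.18%) had an unadjusted p under 0.05. With the block it called 5.28% of them, 92 regions higher in cortisol-treated fish (0.665%) and 638 lower (4.61%), with none of these regions at *alas2* or *urod*. The intron difference was 0.30 without control replicate 2 (adjusted p = 0.950 by limma) and 0.78 without control replicate 3 (adjusted p = 0.0947 by limma).

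By rank the intron was among the most open sites in every library. It held rank 683, 436 and 315 of the 13835 shared regions in cortisol-treated replicates 1, 2 and 3, against ranks 837, 1297 and 516 in controls 1, 2 and 3. These are percentiles of 95.1, 96.8 and 97.7 in the cortisol-treated libraries, against 93.9, 90.6 and 96.3 in the controls. The difference in mean percentile was 2.95 (two-sided exact permutation p = 0.2, where 0.1 is the smallest p that 3 libraries against 3 allow). Ranked among all peaks of each library's own list, the difference was 0.88 (exact permutation p = 0.5). In that ranking cortisol-treated replicate 1 lay below control 1, at 97.5 against 98.6. Control 1 had the longest list, with 138146 summits against 26905 to 63072 in the other libraries. Of the 981 intron rows with a peak in every library, 58 were taller and 62 had a larger difference. The median difference of those rows was a log2 of 0.19, in a table chosen for being higher in cortisol-treated fish.

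**Figure D1:**
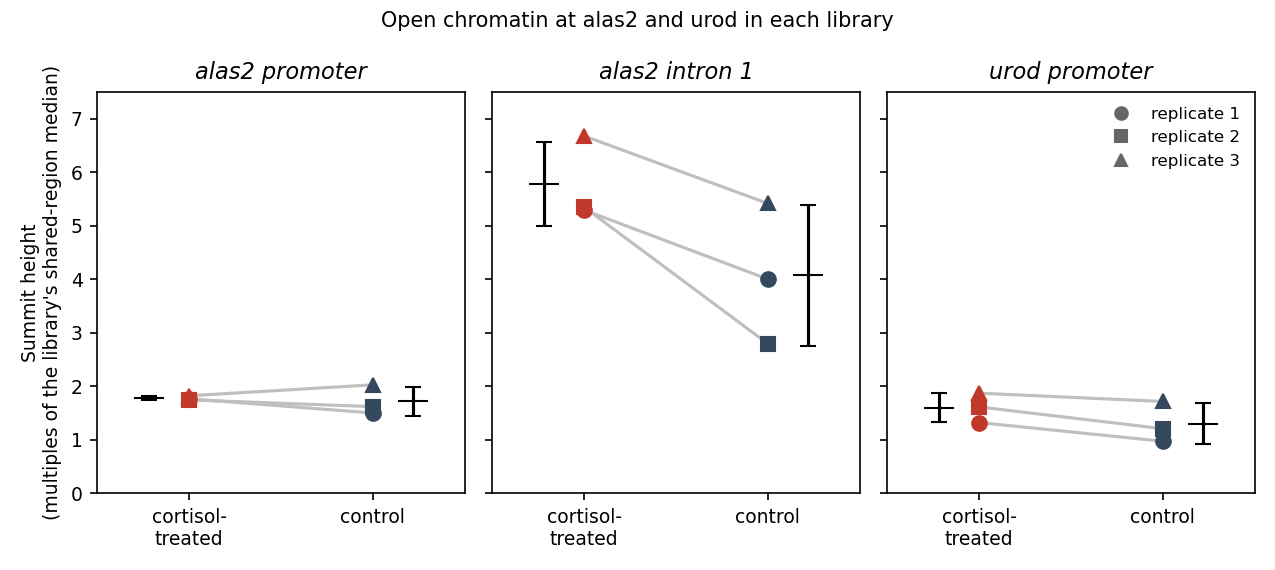
Summit height in each library, as a multiple of that library's median over the shared regions, at the *alas2* promoter, *alas2* intron 1 and the *urod* promoter. Symbols mark the replicate number, lines join the libraries of a number, and black bars give the mean and SD of 3 libraries. The intron points sit between 5.29 and 6.68 in cortisol-treated fish and between 2.79 and 5.42 in controls, while both promoters stay at or below 2.03.

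The *alas2* promoter showed no difference with a settled direction. The row covers chr8:21321589-21321946 (358 bp), centred 88 bp upstream of the start site of *alas2* (ENSDARG00000038643). Its height was 1.76, 1.74 and 1.82 times the shared-region median in cortisol-treated replicates 1, 2 and 3, against 1.499, 1.62 and 2.03 times in controls 1, 2 and 3. The cortisol-treated values lay close together inside the range of the controls. The cortisol-treated library was higher in replicates 1 and 2 and lower in replicate 3. The mean log2 difference was 0.06 (95% interval -0.34 to 0.47, SE = 0.18, adjusted p = 0.881 by limma), and its sign was negative without control replicate 1 (-0.03), without the replicate 1 pair (-0.02), on quantile-normalized scores (-0.06) and when centred on the taller 50% of shared regions (-0.07). The mean percentile was 73.5 ± 0.703 in cortisol-treated fish and 74.4 ± 4.17 in controls (SD, n = 3 each, exact permutation p = 0.7). Ranked in each library's own list, the percentile difference was -3.04 (exact permutation p = 0.4). Of the 4294 promoter rows with a peak in every library, 3273 had a larger difference than this one.

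The ratio of intron to promoter height cancels a factor common to both regions of a library, but not a difference in background reads. It was formed after the values above had been seen, so that it is given as a description with no test. The lowest ratio below was in control 2, which also had the lowest median height over background (6.97). Control 1 was close to it by that median (7.20) but had a ratio of 2.67, as did control 3 (22.7). The part of the background in the ratios was not tested. The intron summit was 3.00, 3.07 and 3.67 times as tall as the promoter summit in cortisol-treated replicates 1, 2 and 3, against 2.67, 1.73 and 2.67 times in controls 1, 2 and 3. No control reached the lowest cortisol-treated library. The mean ratio was 3.25 ± 0.368 in cortisol-treated fish and 2.36 ± 0.546 in controls (SD, n = 3 each), a log2 difference of 0.48, which was 0.27 without control replicate 2. Across 447 pairs of a promoter row and an intron row of the same gene, from 313 genes, all cortisol-treated libraries lay above all controls in 28 (6.26%) and below them in 2.68%, and 19 pairs had a larger log2 difference than *alas2*.

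Downstream of the first intron, 6 further regions of the *alas2* window had a peak in every library, at 4.1, 7.6, 11.0, 14.2, 15.1 and 16.6 kb from the start site. They were low, with mean heights between 0.261 and 0.664 times the shared-region median in cortisol-treated fish and between 0.372 and 0.761 times in controls. The log2 difference was 0.13 at 4.1 kb and negative at the other 5, between -0.70 and -0.18. The signs of these 5 depended on the scale. Divided by the background of each library, all 5 were positive, between 0.24 and 0.76. They were still below 0.97, the median over all shared regions on that scale. Dividing by the background moves the difference of every region by the same amount, so it shifts 0 and not the order of the regions. On quantile-normalized scores the 3 farthest from the start site were positive, between 0.03 and 0.15. At 4.1 kb the difference was 0.92 on quantile-normalized scores (adjusted p = 0.852 by limma). These are differences in log2 score and not in height, so their sizes cannot be set beside those of the heights. The mean percentile of the region at 4.1 kb was 24.2 in cortisol-treated fish and 11.0 in controls (exact permutation p = 0.2). None of the 6 regions passed the test by limma, with or without the block.

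The region at 7.6 kb, chr8:21329233-21329653, differed the most among them. Its height was 0.408, 0.289 and 0.295 times the shared-region median in cortisol-treated replicates 1, 2 and 3, against 0.559, 0.555 and 0.481 times in controls 1, 2 and 3. Every cortisol-treated library lay below every control, as it did at 4.95% of the shared regions. The log2 difference was -0.70 (95% interval -1.29 to -0.11, SE = 0.26, limma p = 0.0259, adjusted p = 0.681), and the exact permutation p was 0.1. Divided by the background of each library instead of the shared-region median, the difference was 0.24, on a scale where the median of all shared regions was 0.97. A list also sets a floor on what can be seen: the lowest height listed was 0.226, 0.159 and 0.166 times the shared-region median in cortisol-treated replicates 1, 2 and 3, against 0.375, 0.389 and 0.184 times in controls 1, 2 and 3. A low region could therefore be listed at smaller multiples in the cortisol-treated libraries than in controls 1 and 2, and the part of this floor in the differences was not tested.

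**Figure D2:**
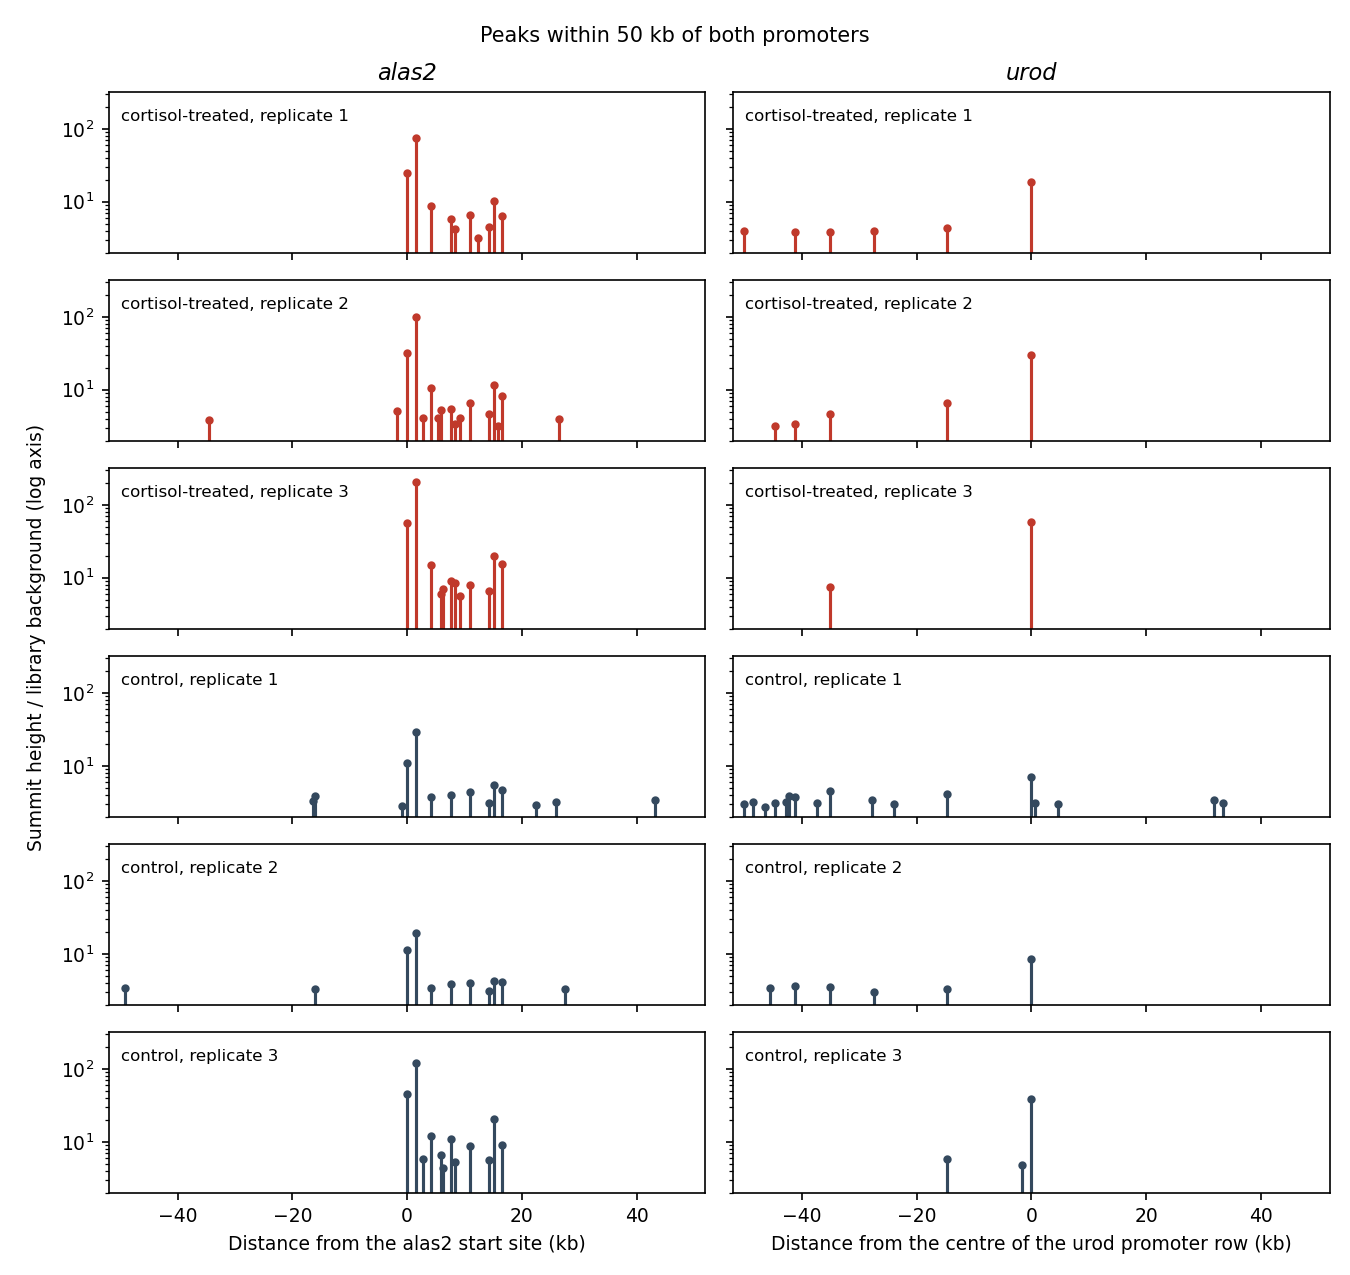
Height over background of every peak within 50 kb of the *alas2* start site (left) and of the centre of the *urod* promoter row (right), on a log axis, with the cortisol-treated libraries above the controls. The tallest peak in each *alas2* panel is intron 1, from 19.5 to 204.9 times background. In each *urod* panel it is the promoter, from 6.98 times background in control 1 to 57.4 times in cortisol-treated replicate 3.

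The *urod* promoter was somewhat taller in cortisol-treated fish, within the spread of the libraries. The row covers chr2:27919915-27920304 (390 bp) and its centre lies 44 bp upstream of the annotated start of NM_131347 (ENSDARG00000006818). The height was 1.32, 1.61 and 1.87 times the shared-region median in cortisol-treated replicates 1, 2 and 3, against 0.970, 1.21 and 1.71 times in controls 1, 2 and 3. The groups overlapped, and in both of them replicate 3 was the tallest and replicate 1 the lowest. Within pairs the cortisol-treated library was higher by 0.45, 0.42 and 0.13 on the log2 scale for replicates 1, 2 and 3.

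The mean log2 difference at the *urod* promoter was 0.33, or 1.26-fold (95% interval 0.844 to 1.87-fold, SE = 0.25), with an adjusted p of 0.684 by limma and of 0.266 with the replicate block. Its percentile was 62.1, 70.8 and 74.9 in cortisol-treated replicates 1, 2 and 3, against 48.1, 61.2 and 72.8 in controls 1, 2 and 3, a difference of 8.59 (exact permutation p = 0.4). Ranked among all peaks of each library's own list, the difference turned to -0.968. In that ranking control 1 was the highest library, at 92.6, although among the shared regions it was the lowest, at 48.1. A percentile of this kind depends on how many peaks are listed, and control 1 had the longest list. Of 4294 promoter rows, 817 had a larger difference, and the median row differed by 0.19. The log2 difference was 0.14 without control replicate 1 (adjusted p = 0.995 by limma), 0.21 without cortisol-treated replicate 3 and 0.55 without control replicate 3 (adjusted p = 0.168 by limma).

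**Figure D3:**
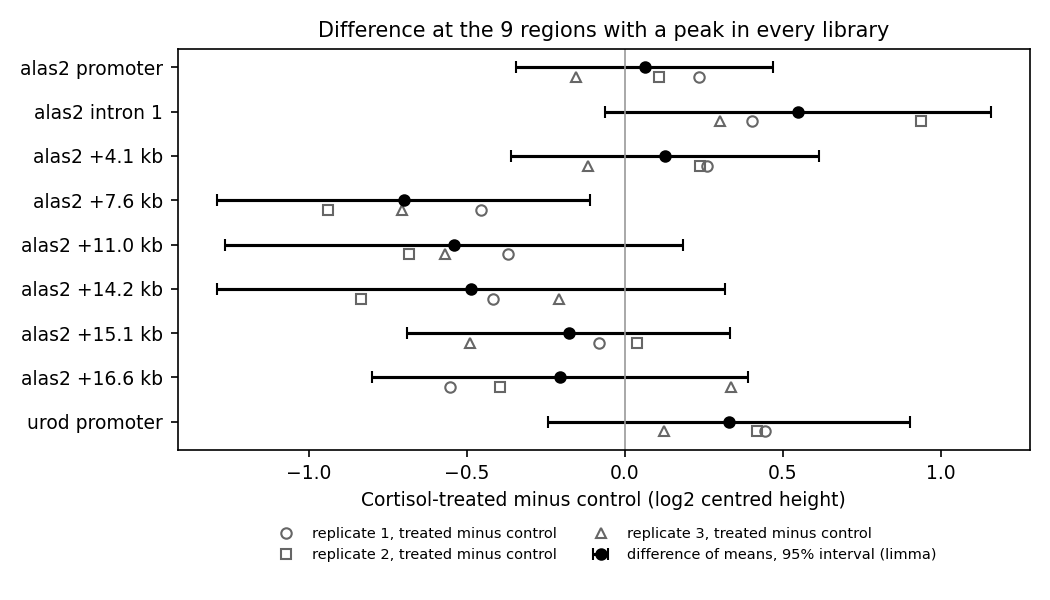
Difference in log2 centred height, cortisol-treated minus control, at the 9 regions of both windows with a peak in every library. Filled points are differences of means with 95% intervals from limma and open symbols are the differences within each replicate number. Of these intervals, fitted without a block, only that of the *alas2* region at 7.6 kb excludes 0 before adjustment. With the replicate block, the intervals of that region (-1.30 to -0.097) and of *alas2* intron 1 (0.21 to 0.89) both exclude 0 before adjustment. *alas2* intron 1 and the *urod* promoter have all 3 pairs above 0, and the *alas2* regions at 7.6, 11.0 and 14.2 kb have all 3 below 0.

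The surroundings of the genes were unlike each other. Around *alas2*, 8 of the 27 merged regions had a peak in all 6 libraries, all of them from the promoter to 16.6 kb downstream, and 13 had a peak in a single library. Over the genome, 13835 of the 153054 merged regions had a peak in all 6. Around *urod* the promoter was the only one of 20 regions with a peak in all 6, and 13 had a peak in a single library, 11 of them only in control 1, which has the longest list (119526 intervals, against 22570 to 54023 in the other libraries). The distal *urod* regions found most often lay at -35.1 kb from the promoter in genome direction, with a peak in every library but control 3, and at -14.8 kb, with a peak in every library but cortisol-treated replicate 3. No region in either window had a peak in all cortisol-treated libraries and no control, or in all controls and no cortisol-treated library. The share of such regions over the genome was not worked out, so their absence cannot be called particular to these windows.

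The number of peaks did not differ beyond the spread. The *alas2* window held 11, 18 and 13 peak intervals in cortisol-treated replicates 1, 2 and 3, against 16, 11 and 14 in controls 1, 2 and 3 (exact permutation p = 1). The *urod* window held 6, 7 and 2 intervals in the cortisol-treated libraries, against 18, 6 and 3 in the controls (exact permutation p = 0.7). Control 1 alone made the *urod* controls the higher group.

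The widths of the peaks are given without a test because width depends on depth. At *alas2* intron 1 the peaks spanned 497, 512 and 508 bp in cortisol-treated replicates 1, 2 and 3, against 438, 474 and 487 bp in controls 1, 2 and 3. At the *alas2* promoter they spanned 462, 478 and 526 bp in the cortisol-treated libraries, against 402, 387 and 500 bp in the controls. At the *urod* promoter the widths were 451, 567 and 505 bp in the cortisol-treated libraries, against 427, 437 and 642 bp in the controls. At the downstream *alas2* regions from 7.6 to 16.6 kb, the cortisol-treated peaks were wider in all 3 pairs, and at 4.1 kb in 1 pair. At 4.1 and 16.6 kb some libraries held 2 peaks, and the widths compared there are their sums. At 14.2 kb they spanned 502, 621 and 597 bp, against 213, 201 and 356 bp in the controls. How often cortisol-treated peaks were wider over all shared regions was not worked out, so these widths cannot be called particular to *alas2*.

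Each of the other pathway enzymes with a promoter row had a larger difference there than *alas2*. Promoter rows existed for 7 of the 10 heme synthesis genes looked for. In the order of the pathway, the log2 difference was 0.06 at *alas2*, 0.26 at *alad* (aminolevulinate dehydratase), 0.33 at *hmbsb* (hydroxymethylbilane synthase), 0.33 at *urod*, 0.34 at *cpox* (coproporphyrinogen oxidase), 0.41 at *ppox* (protoporphyrinogen oxidase) and 0.20 at *fech* (ferrochelatase, which inserts the iron). *alas2* thus had the smallest difference of the 7, and *urod* lay near their median of 0.33. At *ppox* and *fech* all cortisol-treated libraries lay above all controls (exact permutation p = 0.1 for each, the smallest possible). The same held for 9.27% of the 4294 promoter rows.

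Among the wider list of 48 genes of heme and iron handling, 20 promoter rows had a peak in every library. Of these, 19 had a higher mean in cortisol-treated fish, against 85.0% of the 4294 promoter rows, and the median difference was 0.27, against 0.19. All cortisol-treated libraries lay above all controls in 5 of the 20, against 9.27% of promoter rows. Besides *ppox* and *fech* these were the row at -867 bp of *slc25a37* (mitoferrin, the mitochondrial iron importer; 0.45), *fth1a* (a ferritin heavy chain; 0.40) and *bach1b* (0.49), whose mammalian counterpart is a heme-binding repressor. None of the 20 passed the test by limma, with or without the block. Since the deposited rows were picked by the authors as higher in cortisol-treated fish, the direction of these differences is built into the table.

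Within that list, the iron and porphyrin supply genes ranged from 0.08 at the row at -8 bp of *slc25a37* to 0.45 at its row at -867 bp. Between them lay *glrx5* (0.09), *slc25a38b* (0.12), *tfr1b* (0.22), *abcb6a* (0.28) and *tmem14ca* (0.30). *fth1b* differed by 0.31. Of the heme breakdown and uptake genes, *blvrb* (biliverdin reductase) differed by 0.26 and *slc48a1a* (a heme transporter) by 0.23, and the row at -783 bp of *hmox2a* (heme oxygenase) was the only one below 0, at -0.05. Without control replicate 3, 20 of the 20 rows had a higher cortisol-treated mean, against 3850 of all 4294 promoter rows. In that setting 13 of the 20 did not overlap, against 44.9% of all promoter rows. Without the replicate 1 pair 17 were higher, against 3541 of the 4294, and 7 did not overlap, against 25.2%.

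**Figure D4:**
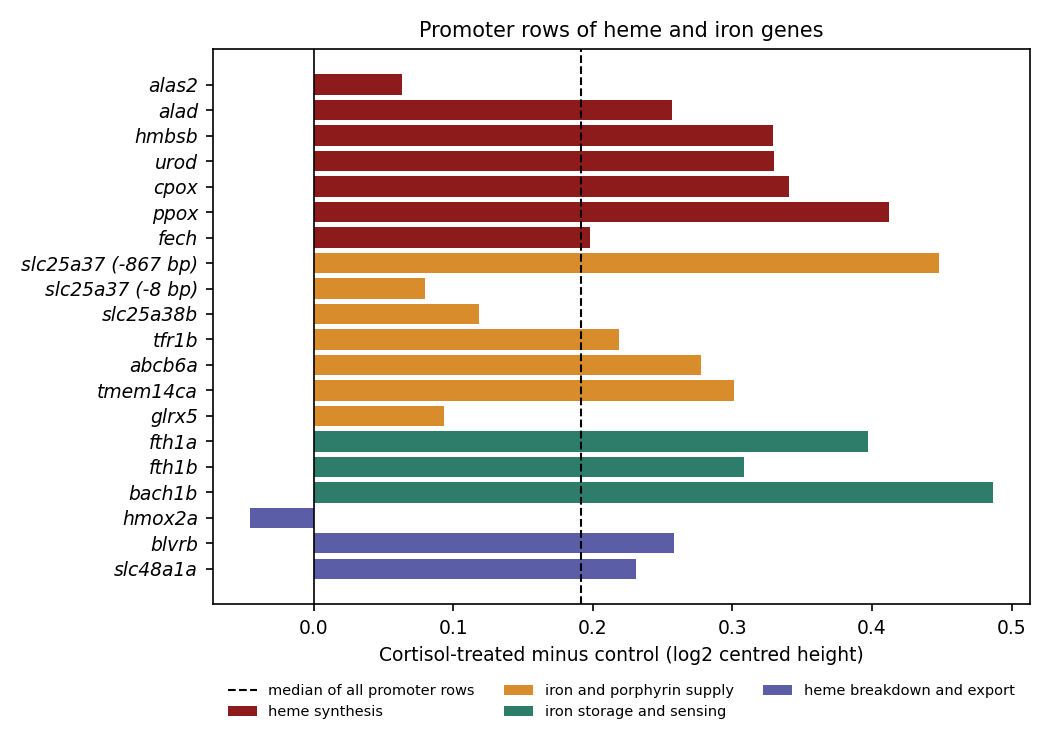
Difference in log2 centred height, cortisol-treated minus control, at the 20 promoter rows of heme and iron genes with a peak in every library. Bars start at 0 and are coloured by role, and the dashed line is the median of all 4294 promoter rows (0.19). *alas2* lies below that line and *urod* (0.33) above it.

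Over the 6 libraries the height of the *alas2* promoter went most closely with the promoter rows of *gpn3* (Pearson r = 0.994), *wdsub1* (0.993), *cep70* (0.992), *phactr4b* (0.989) and *suclg1* (0.985), of 4292 rows compared. The *urod* promoter went most closely with *vps51* (0.999), *pak4* (0.996), *ptp4a2a* (0.996), *pibf1* (0.995) and *psmc4* (0.994). The *alas2* and *urod* promoters had an r of 0.859 with each other, and the median r over all rows was 0.607 for *alas2* and 0.673 for *urod*. These values describe 6 libraries that share their depth and signal over background at every row.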

How the data were processed

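Groups and replicate numbers were taken from the sample labels. Per the submitters' processing notes, the authors used Trimmomatic 0.32, Bowtie 1.0.0, MACS2 2.1.1.20160309 and HOMER 4.8 with the GRCz10 genome, and mitochondrial alignments were removed. The deposited lists hold a MACS2 score, a whole number that rises with the −log10 q of a summit and is not scaled between libraries. The authors deposited lists per library and per pooled group, and lists of their own comparison between groups, whose scores were not used.

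A list was scored against 1 background throughout, so the steps between scores give the background and the reads piled up at each summit (the height). Recovered backgrounds summed to 14.3 reads over the cortisol-treated libraries and 21.6 over the controls, against 14.4 and 21.7 in the authors' pooled lists. Peaks overlapping by at least 1 bp were merged. Log2 heights of shared regions were centred on the library median and compared with limma 3.58.1 (R 4.3.3, trend, Benjamini-Hochberg, threshold 0.05), without a block as the study used none. Percentiles and counts were compared by two-sided exact permutation. Scripts used Python 3.11.15 and were tested on simulated data. There, limma without a block found 0 of 200 altered regions at each of the simulated log2 differences 0.5 and 1. At 2 it found 151 of 200, with 15 false calls. At the centred log2 differences reported for *alas2* and *urod*, failing this test therefore does not show that a region was unchanged. No read totals were at hand, so depth is known only through the background, and no counting intervals are given.

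The replicate numbers pair the libraries: the labels give both libraries of a number the same age, and after removal of group means same-number libraries correlated across regions by 0.65, 0.189 and 0.641, against -0.627 to 0.16 for other combinations, a contrast that the removal of means in part builds in.

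Every row of *alas2* and *urod*, every heme-list gene with a promoter row, and the 5 promoter rows most like each promoter by Pearson r are named. Members and lists were chosen with earlier results of these data known. The alternatives were other scalings, overlaps, score limits and windows, the block, and each library left out. Promoter sequences were not analysed here.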

Additional observations from a re-analysis of the deposited data

How the results depend on the processing

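No call at *alas2* or *urod* was gained or lost under any setting run, since none passed the threshold in the first place. With the replicate block, which follows the pairing by age, the regions called across the genome numbered 92 higher and 638 lower in cortisol-treated fish, against 0 and 0 without it, and the block ended or made no other call. Directions that turned were these. The log2 difference at the *alas2* promoter was -0.0683 when centred on the taller 50% of shared regions, -0.0611 on quantile-normalized scores and -0.0229 without the replicate 1 pair, a setting chosen after seeing the data. Its difference in percentile was 0.99 without control replicate 3. The *urod* promoter differed by -0.968 in percentile when ranked in each library's own list, a ranking that depends on list length. At the downstream *alas2* regions, dividing by the background gave 0.24 at 7.6 kb, 0.40 at 11.0 kb, 0.45 at 14.2 kb, 0.76 at 15.1 kb and 0.73 at 16.6 kb, on a scale whose median over shared regions was 0.97. Quantile-normalized scores gave 0.15, 0.0276 and 0.0410 at 14.2, 15.1 and 16.6 kb, and centring on the taller regions gave -0.0043 at 4.1 kb. The quantile-normalized values are differences in log2 score and not in height, so only their signs are compared with the others. On the scale centred on the taller regions, the median over shared regions was -0.0992. Dividing by the background and centring on the taller regions each move the difference of every region by the same amount. The turns under those settings are therefore a shift of 0. The cause of the other turns was not tested.

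Leaving out each library in turn gave log2 differences of 0.30 to 0.78 at *alas2* intron 1, -0.0276 (without control replicate 1) to 0.19 at its promoter and 0.14 to 0.55 at the *urod* promoter. The differences in percentile ran from 1.45 to 4.29, from -3.15 to 0.991 and from 2.29 to 14.7 in the same order, and the log2 intron-to-promoter difference, a measure chosen after seeing the data, from 0.27 to 0.59. The difference in peak number ran from -1.67 to 1.83 around *alas2*, turning at -1.67 without cortisol-treated replicate 2 and at -1 without control replicate 2. Around *urod* it ran from -7 to 0.5, turning at 0.5 without control replicate 1. Over the settings without a block, adjusted p by limma ran from 0.0947 to 0.995 at the intron, from 0.391 to 0.999 at the *alas2* promoter and from 0.168 to 0.995 at the *urod* promoter.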

Other observations

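Of the 48 heme and iron genes, 27 had a row in the deposited table. Promoter rows without a peak in all 6 libraries belonged to *eif2ak1*, the heme-regulated kinase, and to the row at -68 bp of *hmox2a*. The *eif2ak1* row stood 8.73, 12.5 and 25.7 times above background in cortisol-treated replicates 1, 2 and 3, against no peak in control 1 and 3.53 and 10.3 times in controls 2 and 3. The *hmox2a* row stood 8.73, 11.3 and 15.1 times above background in the cortisol-treated libraries, against 5.56 times in control 1, no peak in control 2 and 11.2 times in control 3. Each lacked a peak in a single library, control 1 or control 2, and had a peak in the other of these controls. Their backgrounds were 9.17 and 9.04 reads. The part of the background in the missing peaks was not tested.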
